A study of Mus musculus with 24 samples.

Results

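The genes described here encode the glucose transporter GLUT1 (Slc2a1) and 9 enzymes of glycolysis, Hk2, Pfkl, Pfkp, Aldoa, Tpi1, Gapdh, Pgk1, Pkm and Ldha. They were taken by symbol from a list drawn up with earlier results of these data known. All 10 were listed among the 20636 genes of the transcript tables at both ages. The study profiled brain microglia of C57BL/6J mice by bulk RNA sequencing. Homozygous knockout (HOM), heterozygous knockout (HET) and wild type (WT) mice for C9orf72, which the tables list as 3110043O21Rik, were taken at 3 months and at 17 months, with 4 animals in each of the 6 groups. How the knockout allele was built is not stated in the labels, which name no Cre line or transgene. Cells were obtained after the meninges and myelin were removed and CD11b-positive cells were kept on magnetic beads.

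Glycolysis turns glucose into pyruvate in the cytosol and yields ATP without oxygen. Glucose enters through facilitative transporters, hexokinase traps it as a phosphate, phosphofructokinase commits it to the pathway, and lactate dehydrogenase can turn the pyruvate into lactate. In microglia and other macrophages, inflammatory activation is known to raise glucose uptake and lactate output, and the transcription factor HIF-1 is a well-known activator of many of these genes under low oxygen. In the brain, GLUT1 is also the glucose transporter of the blood-brain barrier and is abundant in endothelial cells.

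All 10 genes had a promoter in the RefSeq table of GRCm38.p6, which covers 250 bases before to 50 bases after an annotated start. Those of Slc2a1, Gapdh, Pgk1 and Ldha were picked because these genes span the pathway from uptake to lactate and are textbook HIF-1 targets. The promoters of Slc2a1, Gapdh and Pgk1 are shown. Each is written 5′ to 3′ on the gene's own strand, and capitals mark every ACGTG or GCGTG, the core letters of the hypoxia response element, on either strand (CACGT and CACGC where the match is on the opposite strand), so that a CACGTG holds 2 overlapping matches. 
Slc2a1, plus strand, chr4:119108495-119108794: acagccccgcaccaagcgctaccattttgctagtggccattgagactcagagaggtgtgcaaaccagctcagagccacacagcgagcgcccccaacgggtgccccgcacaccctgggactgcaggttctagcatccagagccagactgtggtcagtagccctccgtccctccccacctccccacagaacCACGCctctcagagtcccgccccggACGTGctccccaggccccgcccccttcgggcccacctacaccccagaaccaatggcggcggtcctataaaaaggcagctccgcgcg
Gapdh, minus strand, chr6:125165724-125166023: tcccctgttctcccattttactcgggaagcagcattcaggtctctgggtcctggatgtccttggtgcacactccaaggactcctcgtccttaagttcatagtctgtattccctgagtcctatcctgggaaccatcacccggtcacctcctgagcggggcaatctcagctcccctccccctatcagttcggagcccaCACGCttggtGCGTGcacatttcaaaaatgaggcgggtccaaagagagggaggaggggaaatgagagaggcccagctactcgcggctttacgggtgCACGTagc
Pgk1, plus strand, chrX:106186850-106187149: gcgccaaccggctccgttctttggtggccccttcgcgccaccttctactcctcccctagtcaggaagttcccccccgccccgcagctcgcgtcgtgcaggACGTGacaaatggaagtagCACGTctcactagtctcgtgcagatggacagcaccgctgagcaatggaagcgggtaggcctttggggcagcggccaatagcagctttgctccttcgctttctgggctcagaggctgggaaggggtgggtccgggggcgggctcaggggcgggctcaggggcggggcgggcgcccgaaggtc
For Ldha, the second of 2 listed starts lies on the plus strand at chr7:46846832-46847131, and its bases are not printed. 
Slc2a1 held 2 matches, Gapdh 3, Pgk1 2 and the second listed Ldha start 2. The first listed Ldha start held 7. The last bases of that window were not found as an unbroken run in the GENCODE transcripts of Ldha, while those of the second were. A splice junction within those bases would also break the run, so this check does not show which start is used. At the first listed start 7 of the 10 genes held at least 1, the exceptions being Tpi1, Aldoa and Pkm. Among all 32851 promoters of this length 43.8% held a match and 20.6% held at least 2, so these letters are common, and a match describes the sequence and not a site in use. In the GENCODE annotation of the same assembly Slc2a1 lies at chr4:119108711-119137983 on the plus strand, Hk2 at chr6:82725025-82774454 on the minus strand and Pfkl at chr10:77986947-78010083 on the minus strand. Pfkp lies at chr13:6579768-6648777 on the minus strand, Aldoa at chr7:126795234-126800751 on the minus strand and Tpi1 at chr6:124810586-124814296 on the minus strand. A second protein-coding entry named Aldoa lies at chr7:126800790-126809108 on the minus strand. The Aldoa values were taken by symbol and were not split between these entries. Gapdh lies at chr6:125161715-125166467 on the minus strand, Pgk1 at chrX:106187100-106203699 on the plus strand, Pkm at chr9:59656368-59679375 on the plus strand and Ldha at chr7:46841475-46855627 on the plus strand.

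The libraries held 16.7 to 46.4 M alignments. At 3 months HOM libraries had 30.6 to 33.8 M, HET libraries 26.3 to 28.9 M and WT libraries 21.8 to 28.4 M, and at 17 months the HOM libraries were again the deepest, with 40.7 to 46.4 M. The targeted gene followed the labels, at 0.139 ± 0.0918 TPM in HOM, 9.73 ± 1.75 in HET and 22.8 ± 2.23 in WT mice at 3 months (SD, n = 4 each), and at 0.0360 ± 0.0158 TPM in HOM, 7.20 ± 1.53 in HET and 14.9 ± 1.48 in WT mice at 17 months (SD, n = 4 each). Summed over 8 microglial markers, the libraries held 24284 to 29906 TPM at 3 months and 14392 to 21192 TPM at 17 months. Y-linked genes marked 2 HOM, 4 HET and 1 WT mice as male at 3 months, and 3 HOM, 0 HET and 1 WT mice at 17 months, so genotype and sex were unbalanced. HET-8304, at 3 months, stood apart in markers of other cells, with 673 TPM over 14 endothelial and mural genes and 2517 TPM over 7 oligodendrocyte genes, both the highest of its age. HOM-8285 was low across the pathway, below its age mean in 9 of 10 genes.

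Gapdh, the dehydrogenase at the middle of the pathway, had the highest level, at a mean of 1430 TPM over the 12 animals of 3 months (1126 to 1634) and 1773 TPM over the 12 of 17 months (1554 to 1920). Aldoa, which splits fructose bisphosphate, followed with 480.0 TPM at 3 months and 617 TPM at 17 months, and Pkm, which makes pyruvate and ATP, with 321 and 383 TPM at these ages. These steps in the order of levels did not overlap between animals at either age. Ldha was next, at 185 and 216 TPM, then Tpi1, the triose isomerase, at 137 and 190 TPM, and their ranges were separate at 3 months but overlapped at 17 months. Below them the order differed between the ages. Hk2, the inducible hexokinase, stood at 102 TPM at 3 months, above Pgk1, the kinase that makes the first ATP of the pathway, at 94.5 TPM, while at 17 months Hk2 was at 68.7 TPM, below Pgk1 at 113 TPM and Slc2a1 at 98.0 TPM. From Hk2 down to Pfkl at 3 months, and from Pgk1 down to Pfkl at 17 months, each gene overlapped the next in the order, while Pfkl and Pgk1 did not overlap at either age. Pfkl, the liver-type phosphofructokinase, was at 60.9 and 59.6 TPM, and Pfkp, the platelet-type one, was far the lowest at 4.13 and 5.67 TPM. The 2 genes with the widest spread between animals at 3 months were Slc2a1 and Pfkp, with SDs of 0.50 and 0.26 on the log2(TPM + 1) scale, against 0.10 to 0.19 for the other 8. Pkm is given as the sum over its transcripts, so its M1 and M2 forms were not separated. Gapdh, Tpi1, Ldha, Pgk1, Aldoa and Pkm have many processed pseudogenes, and how reads shared with them were counted is not given in the sources used here.

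**Figure D1:**
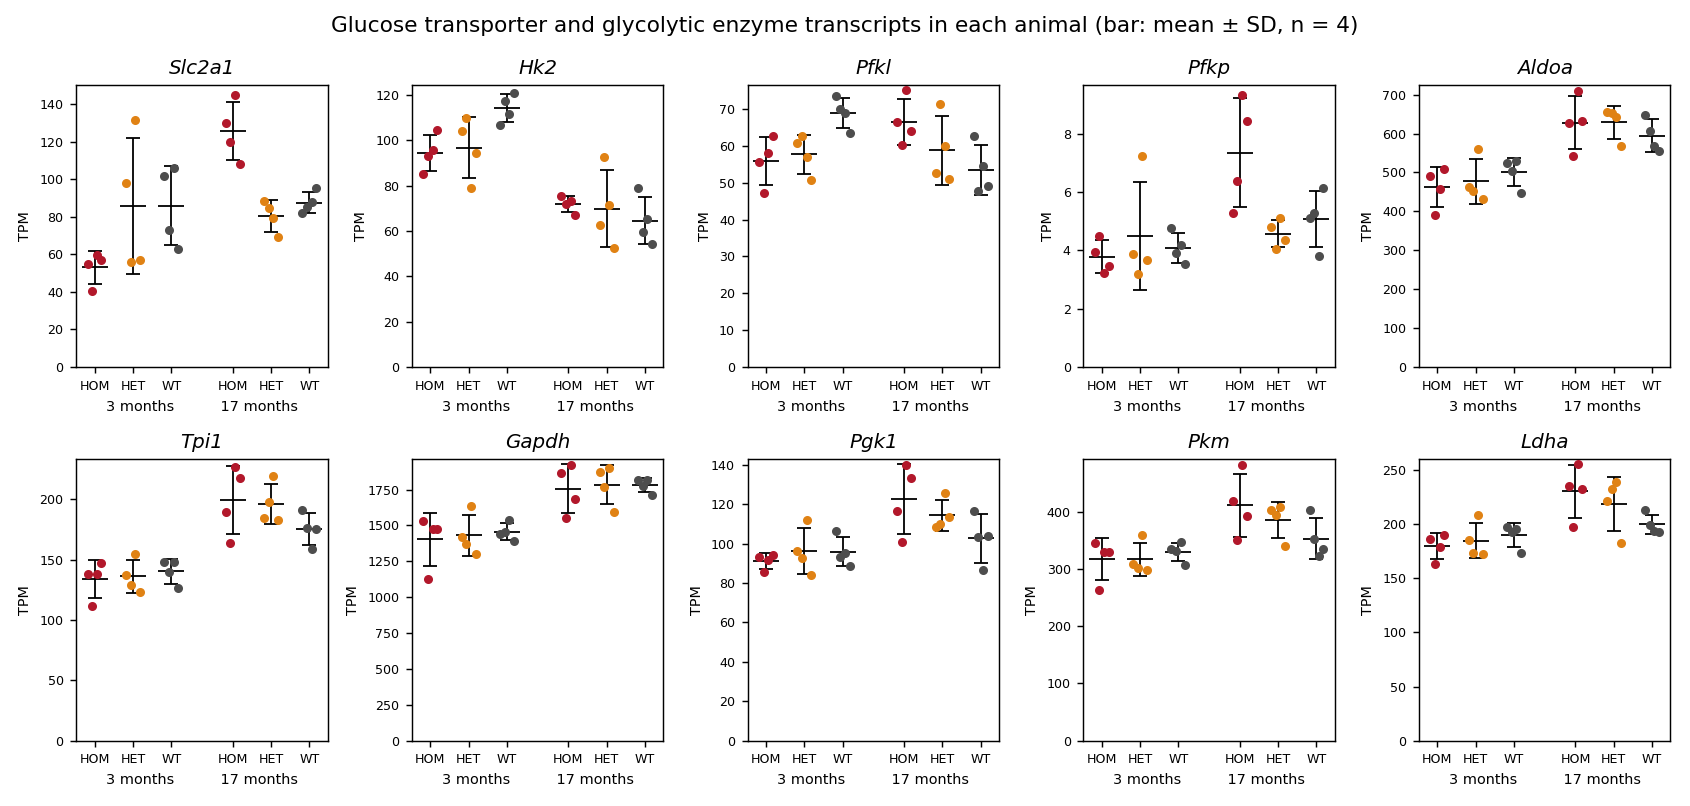
TPM of the 10 genes in each of 24 mice, with the groups HOM, HET and WT at 3 months and then at 17 months along each horizontal axis; points are animals and bars the mean ± SD of 4. For Slc2a1 the HOM animals lie below the WT animals at 3 months and above both other genotypes at 17 months.

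At 3 months no gene of the set passed the test in any genotype comparison. The test was limma's moderated test on log2(TPM + 1) across all genes, adjusted by Benjamini-Hochberg, with a gene called at an adjusted p under 0.05. Of all 11587 genes tested, 0.0604% were called between HOM and WT, 0.0432% between HET and WT and 0.0259% between HOM and HET, so calls were rare throughout. At an unadjusted p under 0.05, limma gave 3, 2 and 1 of the 10 genes in these comparisons, beside 19.7%, 21.6% and 8.55% of all genes. Slc2a1 was at 54.9, 40.4, 59.9 and 56.9 TPM in the HOM mice, 98.0, 55.9, 132 and 57.1 TPM in the HET mice and 102, 73.0, 106 and 63.0 TPM in the WT mice. Every HOM animal lay below every WT animal, while the HET animals fell into a high and a low pair. The log2 difference was -0.67 between HOM and WT (SE 0.26, adjusted p 0.195 by limma). Hk2, which traps glucose in the cell, was at 85.0, 92.9, 95.5 and 104 TPM in HOM mice, 104, 110, 78.9 and 94.2 TPM in HET mice and 107, 117, 112 and 121 TPM in WT mice. All HOM values were again below all WT values, with a log2 difference of -0.27 (SE 0.096, adjusted p 0.169 by limma). Pfkl was at 55.7, 47.1, 58.1 and 62.6 TPM in HOM mice, 60.8, 62.6, 56.9 and 50.6 TPM in HET mice and 73.5, 70.0, 68.9 and 63.6 TPM in WT mice. The WT animals were the 4 highest of the 12, and the log2 differences were -0.30 for HOM (adjusted p 0.130 by limma) and -0.26 for HET (adjusted p 0.143 by limma) against WT. By sex, Slc2a1 was at 54.9 and 40.4 TPM in the HOM males and 63.0 TPM in the WT male, and at 59.9 and 56.9 TPM in the HOM females and 73.0 to 106 TPM in the WT females. Without HOM-8285 the HOM differences from WT were -0.55 for Slc2a1, -0.27 for Hk2 and -0.23 for Pfkl.

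Those 3 genes are the ones of 10 whose HOM and WT animals did not overlap at 3 months, beside 16.8% of all genes tested. Between HET and WT 1 of 10 did not overlap, Pfkl, beside 11.3% of all genes, and between HOM and HET 0 of 10, beside 4.35%. The other genes differed little. Between HOM and WT their log2 differences ran between -0.12 for Aldoa and -0.06 for Pkm, with 95% intervals that reached -0.50 and 0.31 at the widest, for Pfkp. All 10 genes had a lower HOM than WT mean, but the median of the set, -0.09, was close to that of all genes tested, -0.10. Centring each library on its median gene moved that all-gene median to 0.01, by over 0.1, and the set's median to 0.03. With it 6 of the 10 were above 0, while Slc2a1, Hk2 and Pfkl stayed below at -0.56, -0.16 and -0.19. Between HET and WT the median of the set was -0.05 (all genes -0.09) and with centring 0.06, and between HOM and HET it was -0.04 (all genes 0.0013). In the RPKM tables Slc2a1 differed by -0.60 between HOM and WT, and Pfkl by -0.23, and in both the animals overlapped (adjusted p 0.421 and 0.373 by limma), while Hk2 still did not overlap (-0.21, adjusted p 0.268 by limma).

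At 17 months Slc2a1 was higher in HOM mice than in both other genotypes, and it was the one gene of the 10 that passed the test. It was at 130.1, 120.2, 145 and 108 TPM in HOM mice, 88.4, 84.5, 79.6 and 69.1 TPM in HET mice and 81.9, 85.5, 87.7 and 95.2 TPM in WT mice. The HOM animals were the 4 highest of the 12, and HET and WT animals overlapped. Slc2a1 averaged 126 ± 15.6 TPM in HOM mice and 87.6 ± 5.61 TPM in WT mice (SD, n = 4 each), a log2 difference of 0.51 (SE 0.10, adjusted p 0.0468 by limma). Against the HET mean of 80.4 ± 8.36 TPM (SD, n = 4) the HOM difference was 0.64 (SE 0.10, adjusted p 0.00613 by limma), and HET mice differed from WT by -0.12 (adjusted p 0.872 by limma). The genes called made up 0.712% of the 11792 tested between HOM and WT, 1.86% between HOM and HET and 0.237% between HET and WT. The call against WT sat at the threshold. It ended with a pseudocount of 0.1 (adjusted p 0.0573), with no filter on low values (0.0654) and with any 1 of the animals left out except HET-7796 (up to 0.158, all limma), at log2 differences of 0.44 to 0.58. The call against HET held in each of those settings. A sex term ended both calls, with differences of 0.44 against WT (adjusted p 0.133 by limma) and 0.53 against HET (adjusted p 0.0923 by limma). By sex, the 3 HOM males were at 120.2 to 145 TPM and the WT male at 87.7 TPM, while the HOM female was at 108 TPM, the 4 HET females at 69.1 to 88.4 TPM and the 3 WT females at 81.9 to 95.2 TPM. These splits hold as few as 1 animal, and no HET mouse of this age was male. In the RPKM tables the differences were 0.53 against WT (adjusted p 0.0171 by limma) and 0.63 against HET (adjusted p 0.00320 by limma).

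Slc2a1 moved with markers of blood vessel cells. Over 14 endothelial and mural genes such as Cldn5, the tight-junction claudin of brain endothelium, and Pecam1, an endothelial adhesion molecule, the summed level at 17 months was 435 to 573 TPM in HOM mice, 189 to 277 TPM in HET mice and 305 to 389 TPM in WT mice. The 4 HOM animals had the 4 highest vessel sums of the 12 and came in the same order by Slc2a1. As a percentage of that sum, Slc2a1 was at 21.7% to 25.3% in HOM mice, 31.9% to 42.2% in HET mice and 24.5% to 26.9% in WT mice. At 3 months the sum was 90.6 to 141 TPM in HOM mice, 112 to 673 TPM in HET mice and 166 to 496 TPM in WT mice. The 5 animals with most vessel RNA, led by HET-8304, again had the 5 highest Slc2a1 values in the same order. At that age Slc2a1 was at 38.9% to 45.6% of the sum in HOM mice, 19.5% to 50.1% in HET mice and 21.4% to 38.0% in WT mice. Each HOM animal of 3 months was above each WT animal in this percentage. Of the 13 vessel genes tested at 17 months, limma called 11 higher between HOM and HET and 2 higher between HOM and WT, and all 13 had positive differences in both. Slco1a4 was listed at 0 in 4 animals of 3 months and 6 of 17 months, and the other 13 vessel genes were above 0 in every animal. This pattern was not particular to vessel markers. Choroid plexus markers at 3 months summed to 237 to 555 TPM in HOM mice, 288 to 3700 TPM in HET mice and 611 to 1023 TPM in WT mice. At 17 months the 4 HOM animals also had the highest choroid plexus sums, though in another order than by Slc2a1. In bulk RNA, more cells of a type and more RNA per cell cannot be told apart. How much of the Slc2a1 difference came from vessel or choroid plexus cells was not tested.

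**Figure D2:**
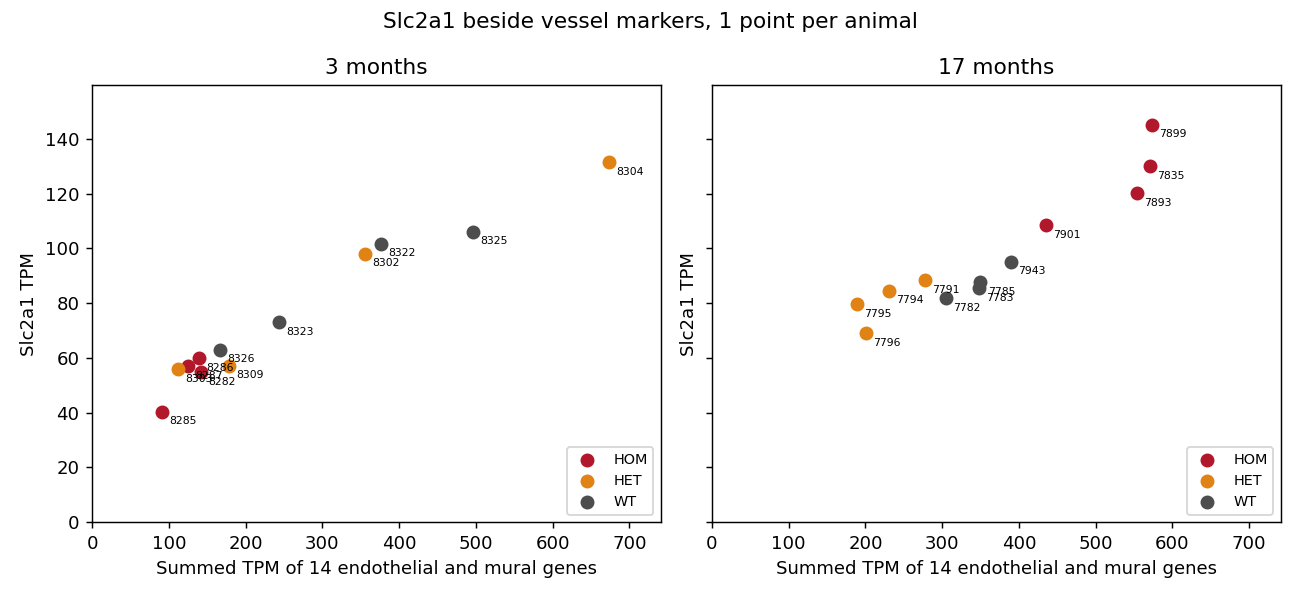
Slc2a1 level (TPM, vertical) against the summed TPM of 14 endothelial and mural genes (horizontal) in each animal at 3 months (left) and 17 months (right), coloured by genotype. At 17 months the 4 HOM points are the highest on both axes, and at 3 months HET-8304 is.

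None of the 9 enzymes passed the test at 17 months. Pfkp was at 5.28, 6.37, 9.35 and 8.44 TPM in HOM mice, 4.82, 4.05, 5.10 and 4.35 TPM in HET mice and 5.10, 5.27, 3.82 and 6.13 TPM in WT mice. Its HOM animals were all above the HET animals and overlapped the WT animals, with log2 differences of 0.56 against HET (SE 0.17, adjusted p 0.152 by limma) and 0.44 against WT (adjusted p 0.179 by limma). Pfkl was at 66.4, 60.2, 75.1 and 64.0 TPM in HOM mice, 52.8, 71.5, 60.1 and 51.0 TPM in HET mice and 62.6, 47.8, 54.4 and 49.0 TPM in WT mice. Here 3 of 4 HOM animals exceeded the highest WT animal, at a log2 difference of 0.31 (SE 0.12, adjusted p 0.193 by limma). In the RPKM tables this Pfkl difference, 0.33, was called (adjusted p 0.0325 by limma), where 932 of 11173 genes were. Pgk1 was at 117, 101, 140.0 and 133 TPM in HOM mice, 109, 110, 126 and 114 TPM in HET mice and 117, 103, 86.8 and 104 TPM in WT mice. The groups overlapped, with a HOM difference from WT of 0.25 (SE 0.12, adjusted p 0.267 by limma). Pkm was at 419, 350, 482 and 393 TPM in HOM mice, 402, 394, 407 and 340 TPM in HET mice and 403, 351, 322 and 335 TPM in WT mice, with a log2 difference of 0.21 between HOM and WT (adjusted p 0.312 by limma). Ldha was at 236, 197, 256 and 233 TPM in HOM mice, 221, 232, 239 and 183 TPM in HET mice and 213, 200, 194 and 193 TPM in WT mice, with a log2 difference of 0.20 between HOM and WT (adjusted p 0.317 by limma). Both overlapped between all genotypes.

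Tpi1 was at 189, 164, 227 and 217 TPM in HOM mice, 184, 198, 219 and 183 TPM in HET mice and 191, 176, 158 and 175 TPM in WT mice, a log2 difference of 0.18 between HOM and WT (adjusted p 0.418 by limma). Hk2 was at 75.4, 71.8, 73.3 and 67.0 TPM in HOM mice, 62.6, 92.4, 71.3 and 52.5 TPM in HET mice and 78.8, 59.6, 65.3 and 54.4 TPM in WT mice. Its HOM animals were the tightest of the genotypes and lay inside the range of the others, with a log2 difference of 0.16 against WT (95% interval -0.17 to 0.50). Aldoa was at 626, 542, 709 and 631 TPM in HOM mice, 654, 653, 642 and 567 TPM in HET mice and 648, 607, 567 and 555 TPM in WT mice, a difference of 0.07 between HOM and WT (95% interval -0.13 to 0.27). Gapdh was at 1868, 1554, 1920 and 1681 TPM in HOM mice, 1871, 1769, 1902 and 1596 TPM in HET mice and 1815, 1774, 1816 and 1715 TPM in WT mice. Its difference between HOM and WT was -0.02, with a 95% interval of -0.21 to 0.16, the narrowest of the set.

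Counted over the set at 17 months, 9 of 10 genes had a higher HOM than WT mean, with Gapdh the exception, at a median of 0.21 against 0.05 for all genes tested. Of the 10, 4 had an unadjusted p under 0.05 (Slc2a1, Pfkl, Pfkp and Pgk1), beside 18.6% of all genes, and 1 did not overlap, beside 13.5%. Between HET and WT 8 of 10 were higher, at a median of 0.11 against -0.01 for all genes, with 0 called, 0 at an unadjusted p under 0.05, beside 9.24% of all genes, and 0 not overlapping, beside 4.54%. Between HOM and HET 8 of 10 were higher, but the median of 0.08 was close to the 0.07 of all genes, and with median centring it was -0.0027, with Hk2, Ldha and Tpi1 then below 0. There 2 of 10 did not overlap, Slc2a1 and Pfkp, beside 7.85% of all genes. These comparisons share their WT or HET animals.

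**Figure D3:**
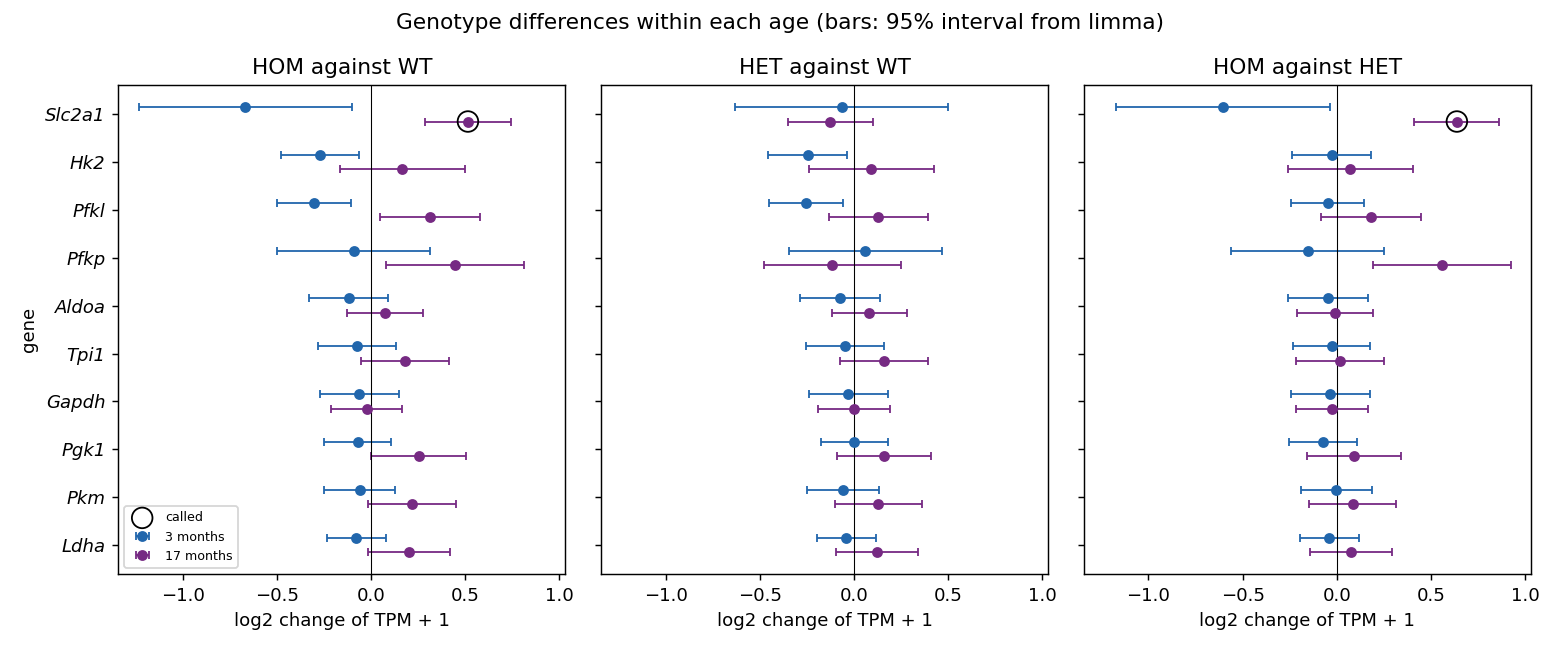
Log2 difference of TPM + 1 for each gene (rows) in the comparisons HOM against WT, HET against WT and HOM against HET (panels), at 3 months and 17 months. Bars are 95% intervals from limma, and rings mark the calls, Slc2a1 at 17 months at 0.51 and 0.64, while most intervals of the enzymes cross 0.

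The genotype differences were then compared between the ages in a fit over all 24 animals, in which 11436 genes were kept. Slc2a1 was lower in HOM than in HET mice by -0.60 at 3 months and higher by 0.64 at 17 months, and this change of 1.24 passed the test (SE 0.30, adjusted p 0.0377 by limma), as 2.03% of all genes did. The call ended in the RPKM tables, with median centring, with quantile normalization and at a mean of at least 5 TPM. With 1 animal left out at a time it held in 11 of 24 fits, and it ended without any 1 of the HOM mice of either age and without HET-8302, HET-8304, HET-7794, HET-7795 or HET-7796. Of the 13 vessel genes, 8 were called in this comparison, all with positive changes. For HOM against WT the change was 1.18 for Slc2a1 and 0.62 for Pfkl, each with an adjusted p of 0.0562 by limma, and no gene of the set was called, beside 0.254% of all genes. All 10 changes of the HOM effect were positive, but the typical gene moved up as well. The median HOM difference from WT over all genes tested was -0.10 at 3 months and 0.05 at 17 months. Of the 10 changes, 6 had an unadjusted p under 0.05 by limma, against 2492 of the 11436 genes. They were 0.54 for Pfkp, 0.44 for Hk2, 0.32 for Pgk1 and 0.28 for Ldha, with adjusted p by limma of 0.178 to 0.225, and the smallest was 0.04 for Gapdh. From RPKM, 3 of the 10 were called in this comparison, Slc2a1, Pfkl and Hk2. Far more of all genes were called there than from TPM, as counted in the last section, so the TPM share is no background for these 3. For HET against WT no gene of the set was called, beside 0.691% of all genes, and Pfkl had the smallest adjusted p, 0.250 by limma, for a change of 0.39.

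Levels at the ages come from tables made separately, so they are set side by side with no test. In HOM mice 8 of the 10 genes were higher at 17 months than at 3 months with no overlap of animals, beside 12.4% of all genes, and 1, Hk2, was lower, beside 44.0% of all genes. Slc2a1 had the largest such difference, at 126 ± 15.6 TPM at 17 months and 53.0 ± 8.64 TPM at 3 months in HOM mice (SD, n = 4 each), a log2 difference of 1.24. In HET mice 2 were higher without overlap, Aldoa and Tpi1, beside 4.23% of all genes, and 0 were lower, beside 27.4%. In WT mice 3 were higher, Aldoa, Tpi1 and Gapdh, beside 6.87% of all genes, and 2 lower, Hk2 and Pfkl, beside 52.2% of all genes lower in this way. Hk2 was lower at 17 months in all genotypes, at 71.9 ± 3.56 and 94.4 ± 7.97 TPM at 17 and 3 months in HOM mice, at 69.7 ± 17.0 and 96.7 ± 13.5 TPM in HET mice and at 64.5 ± 10.5 and 114 ± 6.15 TPM in WT mice (SD, n = 4 each). Its log2 differences in RPKM were -0.08, -0.19 and -0.49 in HOM, HET and WT mice. The median of the set was 0.39 in HOM, 0.24 in HET and 0.09 in WT mice, while that of all genes was -0.23, -0.30 and -0.36. In the RPKM tables the medians of all genes were 0.02, -0.07 and -0.07, and those of the set 0.72, 0.50 and 0.45. Pfkl in WT mice, -0.37 in TPM and -0.02 in RPKM, lay close to the all-gene median in both. The microglial marker sum was lower in every animal of 17 months than in every animal of 3 months, and its part in these differences was not tested.

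**Figure D4:**
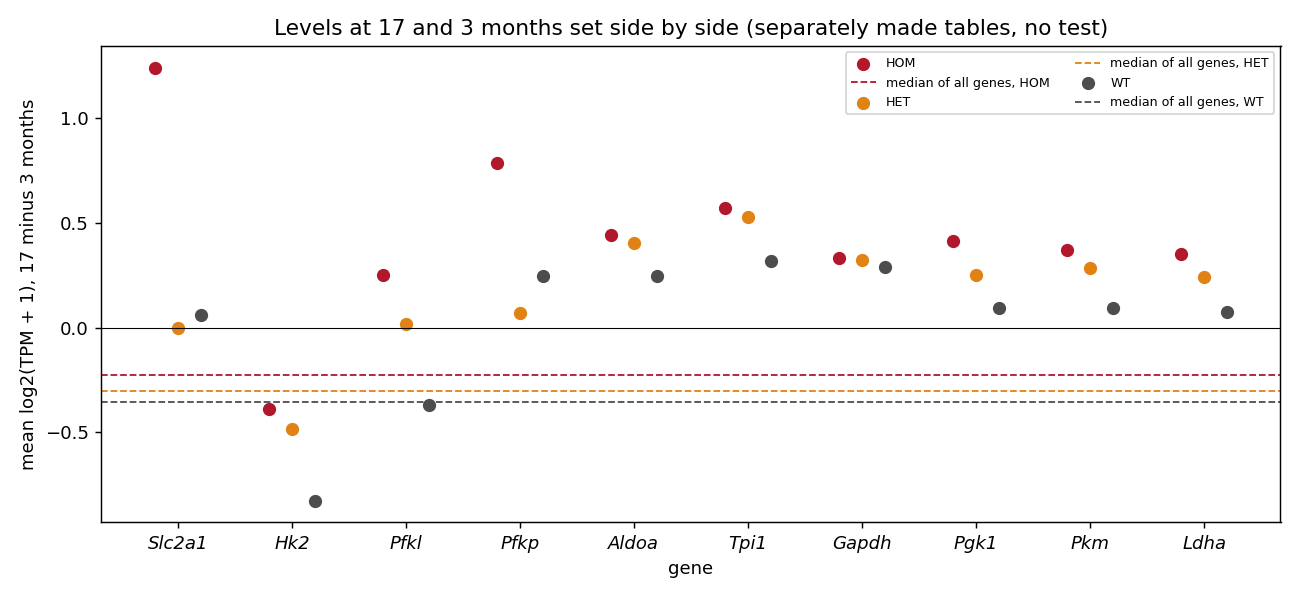
Mean log2(TPM + 1) at 17 months minus that at 3 months (vertical) for the 10 genes in HOM, HET and WT mice, with dashed lines at the all-gene median of each genotype (-0.23, -0.30 and -0.36). Slc2a1 in HOM mice, at 1.24, stands above the other points, and Hk2 is below 0 in all genotypes.

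The genes also varied together from animal to animal. Centred within age, each gene was correlated with the mean of the set over the 24 animals, as a description that shares libraries and, for members, the gene itself. Pearson's r was 0.92 for Ldha, 0.88 for Pkm, 0.86 for Aldoa, 0.85 for Tpi1, 0.82 for Pgk1 and for Slc2a1, 0.78 for Pfkl, 0.66 for Gapdh, 0.64 for Pfkp and 0.35 for Hk2. Hk2, the lowest of them, was low in HET-8304 (78.9 TPM), where 8 of the other 9 genes were above their age mean. The 5 most similar genes outside the set, among 6944 candidates with at least 10 TPM, were Eno1 (0.86), Ly6e (0.83), Capn2 (0.81), Pgam1 (0.81) and Cpt1a (0.81), and Eno1 and Pgam1 are the enolase and phosphoglycerate mutase that act between Pgk1 and Pkm. HOM-8285 had a median deviation of -0.28 from its age mean and HOM-7899 one of 0.29, the most extreme of the 24 animals, and both are homozygotes. HOM-7899 was above its age mean in all 10 genes, as were WT-8322 and WT-8325 at 3 months, whereas HET-8309 was below it in all 10. Without HOM-7899 the HOM difference from WT at 17 months was 0.15 at the median of the set, and with all animals 0.21.

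**Figure D5:**
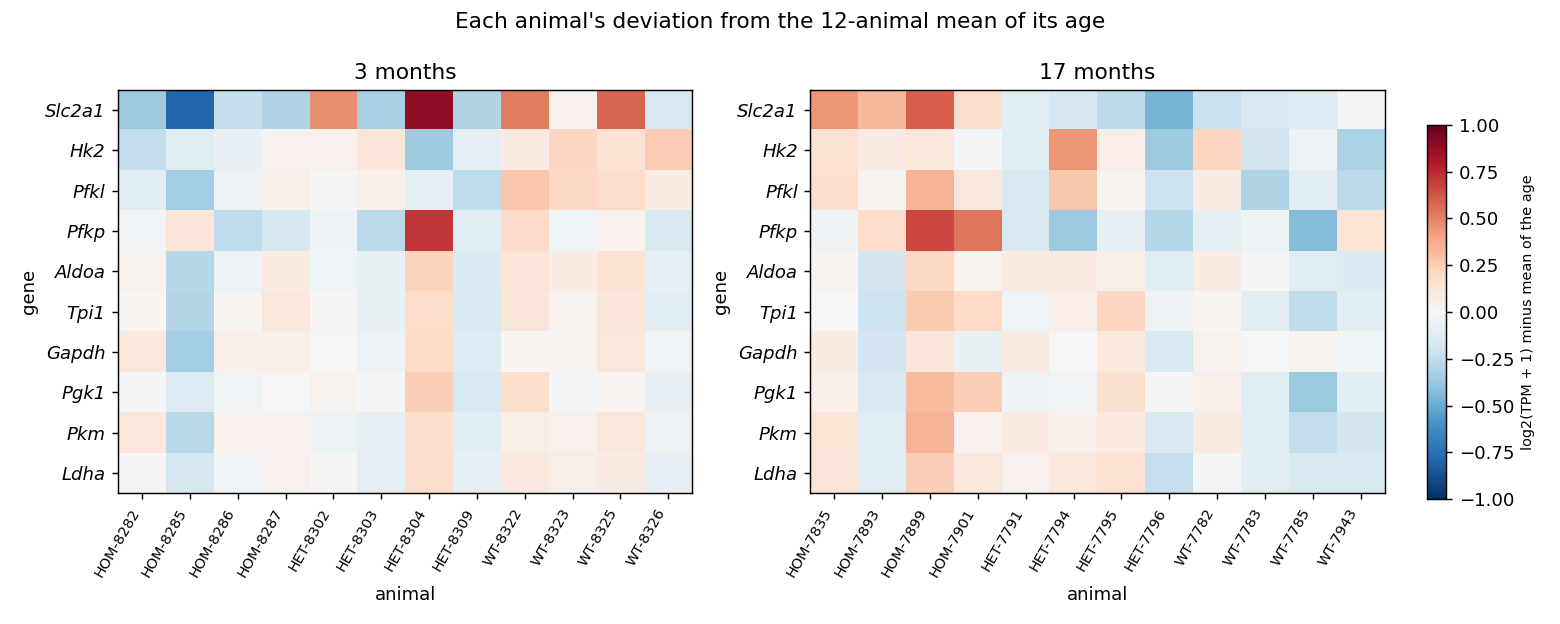
Deviation of each animal's log2(TPM + 1) from the mean of the 12 animals of its age (colour, log2 units) for the 10 genes (rows) in each animal (columns), in HOM, HET and WT order at 3 months (left) and 17 months (right). HOM-8285 is a low column and HOM-7899 a high one, and the Slc2a1 row has the strongest colours.

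The share of each enzyme among its isozymes was compared by an exact permutation test over 4 and 4 animals, two-sided, in which the smallest p of 70 assignments is 0.0286. Of 30 tests 4 reached it, and after Benjamini-Hochberg adjustment over the 30 all of these exact tests had an adjusted p of 0.214, so none passed. Slc2a1 made up 33.7 ± 2.94% of the summed TPM of Slc2a1, Slc2a3 and the fructose transporter Slc2a5 in HOM mice at 17 months, 25.4 ± 2.81% in HET mice and 24.8 ± 3.62% in WT mice (SD, n = 4 each). Ldha made up 43.3 ± 2.69% of Ldha and Ldhb in HET mice at 17 months and 36.2 ± 1.45% in WT mice (SD, n = 4 each). In RPKM these Ldha shares were lower, at 27.7% in HET, 27.3% in HOM and 22.1% in WT mice. There HOM and WT mice also did not overlap, and 5 of 30 exact tests reached the smallest p, each with an adjusted p of 0.171. Aldoa made up 94.4 ± 0.815% of Aldoa and Aldoc in HOM mice at 3 months and 89.1 ± 3.07% in HET mice (SD, n = 4 each), and Aldoc is a brain aldolase of astrocytes and neurons. Hk2 was 39.1% to 41.2% of the 3 hexokinases in the group means of both ages, the rest being Hk1 and Hk3. Pfkp was 4.57% to 8.11% of the phosphofructokinases.

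Genes of the same pathway outside the set were mostly not called. Among 12 other glycolytic enzymes and isozymes tested, such as Eno1, Pgam1 and Gpi1, limma called 0 in each of the 6 genotype comparisons within an age. The one of smallest p between HOM and WT at 17 months was the muscle enolase Eno3, at 54.8 ± 28.6 TPM in HOM mice and 32.6 ± 6.2 TPM in WT mice (SD, n = 4 each, adjusted p 0.206 by limma). Between the ages, Aldoc and Pfkm were called in the change of the difference of HOM from HET, at 1.85 and 0.80 (adjusted p 0.0387 and 0.0457 by limma). Among 7 other glucose and lactate transporters 0 were called. Slc16a3, the lactate exporter MCT4, was at 57.5 ± 15.5 TPM in HOM mice and 40.02 ± 4.07 TPM in WT mice at 17 months (SD, n = 4 each, adjusted p 0.117 by limma). Slc2a5 was at 312 ± 25.0 TPM in HOM mice and 388 ± 34.9 TPM in WT mice at 3 months (SD, n = 4 each, adjusted p 0.0838 by limma). Among the regulators of glycolysis and of pyruvate entry into mitochondria 0 of 11 were called at 3 months and 0 of 10 at 17 months, and Pdk2, a kinase that shuts pyruvate dehydrogenase, was called in the change between ages for HOM against HET (0.58, adjusted p 0.0361 by limma). The 7 pentose phosphate genes and 21 genes of pyruvate dehydrogenase and the TCA cycle gave 0 calls in every comparison, the changes between ages included.

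Of 22 genes of the HIF-1 pathway and its targets tested at 17 months, limma called 1 between HOM and HET, Ndrg1, and 0 between HOM and WT or HET and WT, and of 21 tested at 3 months it called 0. Ndrg1, a hypoxia-induced gene that oligodendrocytes also express, was at 24.1 ± 2.00 TPM in HOM mice and 11.8 ± 3.52 TPM in HET mice (SD, n = 4 each, log2 difference 1.01, adjusted p 0.0291 by limma). Oligodendrocyte markers summed to 803 to 2020 TPM in HOM mice, 418 to 1243 TPM in HET mice and 2352 to 6583 TPM in WT mice at that age, and their part in the Ndrg1 level was not tested. Between HOM and WT at 17 months 17 of 22 HIF-1 genes had positive differences, at a median of 0.18 against 0.05 for all genes. Ankrd37, a gene with a strong hypoxia response, was at 12.9 ± 2.54 TPM in HOM mice and 4.73 ± 1.81 TPM in WT mice (SD, n = 4 each, log2 difference 1.32, adjusted p 0.0513 by limma). Adm, which encodes the vasodilator adrenomedullin, was at 1.89 ± 0.857 TPM in HOM mice and 0.478 ± 0.199 TPM in WT mice (SD, n = 4 each, adjusted p 0.0513 by limma). Its WT mean was below the mean of 1 TPM over all animals of an age that a gene needed to be tested. Adm thus entered the test through the mutant groups, and its p is weak evidence. At 3 months, at a mean of 0.340 TPM, it was not tested. The change of the HOM effect between ages was called for Ankrd37 (1.54, adjusted p 0.0452 by limma), and that of the difference of HOM from HET for Ndrg1 (1.96, adjusted p 0.0457 by limma), each 1 of 21 genes of the list. Hif1a itself was at 22.8 ± 4.08 TPM in HOM mice and 30.4 ± 1.35 TPM in WT mice at 3 months (SD, n = 4 each, adjusted p 0.159 by limma), and its difference at 17 months was -0.02.

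Immediate early and dissociation genes, which respond to tissue handling, differed in the same animals. All 12 had positive differences between HOM and WT at 17 months, with 2 called, Nr4a1 (1.49, adjusted p 0.0468 by limma) and Zfp36 (0.71, adjusted p 0.0409 by limma). Between HET and WT all 12 were positive as well, with 0 called, at a median of 0.59 against 0.56 between HOM and WT. The sum of the 12 was 7807 to 12117 TPM in HOM mice, 7129 to 10358 TPM in HET mice and 5260 to 7699 TPM in WT mice. Microglial markers at 17 months summed to 14392 to 19851 TPM in HOM mice, 14512 to 21192 TPM in HET mice and 17769 to 21146 TPM in WT mice. Of these 8 markers, 7 were lower in HOM than in WT mice, with 1 called, and 5 were lower in HOM than in HET mice, with 1 called. Markers of other cell types are given for the same animals. Choroid plexus markers summed to 1527 to 4358 TPM in HOM mice, 977 to 1394 TPM in HET mice and 312 to 1447 TPM in WT mice, and neutrophil markers to 2306 to 6177 TPM in HOM mice, 568 to 11432 TPM in HET mice and 422 to 2566 TPM in WT mice, with 1 of 5 choroid plexus genes and 0 of 10 neutrophil genes called between HOM and WT. The part of these cells and of handling in the levels of the glycolytic genes was not tested.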

How the data were processed

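RNA was measured in 24 microglial libraries, 4 mice per genotype and age, of 75-base single-end reads from stranded poly(A) libraries, per the labels' protocols. The authors deposited, for each age, TPM values summed to genes, which reach 78.9% to 90.7% of the full TPM scale per library, and RPKM values whose headers state each library's alignments, per the file headers. The submitters' processing notes name TopHat2 2.1.1, Partek 7.17.0918, Salmon 0.8.2, DESeq2 and mm10, without saying which made which table. The RPKM headers give each animal's genotype, and animal numbers link the tables. At 17 months they write hemi for the group taken here as HET. No label links an animal number to a replicate number.

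From the TPM, limma 3.58.1 in R 4.3.3 fitted log2(TPM + 1) with a mean per genotype within each age, an eBayes trend, and genes of mean TPM of at least 1. A fit over both ages gave the changes between ages. P-values are two-sided, adjusted by Benjamini-Hochberg over all genes. The pseudocount of 1 understates differences of low genes such as Pfkp. The limma p-values set each difference between groups against the spread between animals. RPKM tables, other filters, pseudocounts, scalings, weights, a sex term (sex read from 4 Y-linked genes) and leaving out each animal served as alternatives. All members are named, other lists by their called genes or those of smallest p, and similar genes by the highest Pearson's r. The members, gene lists and marker lists were chosen with earlier results of these data known.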

Additional observations from a re-analysis of the deposited data

Results flagged for a closer look

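In 3 of 60 groups of 4 animals (10 genes in 6 groups), 1 animal lay far from the other 3 by Dixon's criterion, and chance alone gives about 1 in 20 groups. Gapdh was at 1126 TPM in HOM-8285 at 3 months, below the 1474 to 1532 TPM of the other HOM mice. Pfkp was at 7.26 TPM in HET-8304 at 3 months, above the 3.19 to 3.88 TPM of the other HET mice. Aldoa was at 567 TPM in HET-7796 at 17 months, below the 642 to 654 TPM of the other HET mice. The difference of Slc2a1 between HOM and HET mice differed between the ages by 1.24 on the log2 scale, at 0.64 at 17 months and -0.60 at 3 months, in a test of that change across both ages.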

How the results depend on the processing

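Of 1257 recomputed changes of single genes of the set, 1213 kept their direction and side of the threshold or moved by less than their error, 15 lost a call, 7 gained one, 22 uncalled ones moved further and 0 called ones changed direction. Counts over all genes moved far more, and the cause was not tested. HOM against WT at 3 months called 7 genes, 23 at a mean of at least 5 TPM, 26 with median centring, 2 with quantile normalization, 2 with a sex term, 1836 with array weights (3 of the set) and 79 with only the 2 groups fitted. HET against WT at 3 months called 5, 10 with no filter, 89 at the mean of 5, 1 in RPKM, 3 with sex, 3507 with weights (1 of the set) and 3 with 2 groups. HOM against HET at 3 months called 3, 1 at the mean of 5, 1 in RPKM, 5 with centring, 7 with quantiles, 3074 with weights (1 of the set) and 5 with 2 groups. HOM against WT at 17 months called 84 (1 of the set), 19 with a pseudocount of 0.1 and 11 with no filter (0 of the set in each), 932 in RPKM (2 of the set), 609 with centring, 633 with quantiles, 5 with sex (0 of the set), 1858 with weights (2 of the set) and 211 with 2 groups. HET against WT at 17 months called 28, 0 with no filter, 17 in RPKM, 1 with centring, 1 with quantiles, 220 with sex, 659 with weights and 0 with 2 groups. HOM against HET at 17 months called 219, 89 at the mean of 5, 45 with sex (0 of the set) and 1136 with weights. The change of the HOM effect between ages called 29, 556 in RPKM (3 of the set), 423 with centring, 148 with quantiles, 58 with sex and 3321 with weights (5 of the set). That of the HET effect called 79, 44 at the mean of 5, 125 with centring, 132 with quantiles, 194 with sex and 3045 with weights (3 of the set). That of HOM against HET called 232 (1 of the set), 55 at the mean of 5, 90 in RPKM, 22 with centring and 66 with quantiles (0 of the set in each), and 1119 with weights (2 of the set). With 1 animal left out at a time, calls ranged over 2 to 118, 3 to 467 and 3 to 66 in these 3-month comparisons, 1 to 368 (0 to 1 of the set), 0 to 239 and 104 to 246 at 17 months, and 1 to 667 (0 to 2 of the set), 19 to 332 and 0 to 443 (0 to 1 of the set) for the changes between ages. No paired analysis was possible because the tables carry animal numbers that no label ties to the replicate numbers, so the fit with a replicate block was not run.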
